A study of Mus musculus with 48 samples.

Results

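The 8 genes described here are Abca8a, Apod, Anln, Il33, Trf, Car2, Gsn and Qdpr, out of 48526 genes counted in the cortex of the mouse. They were grouped under the name of late mature oligodendrocyte genes and were selected on their levels in the same 48 libraries that are described below, so that their fold changes and calls are given as a description and support nothing by themselves. The libraries came from 12 male C57BL/6JRj mice that were wild-type and untreated, 4 at 3 weeks (3w), 4 at 5 months (5m) and 4 at 18 months (18m). For the second group the label says 6 months and the protocol 5, and 5m is written here. From each cortex, total homogenate (TH) and synaptosomes (SYN, a pellet of pinched-off nerve endings) were prepared. RNA was taken before a sucrose cushion (input) and from the pellet below it, which holds RNA on ribosomes among other RNA (SC). This gave input_TH, SC_TH, input_SYN and SC_SYN, each with 4 mice per age, and the 4 libraries of a mouse share the animal. Each mouse gave 1 library per fraction, so the spread given is that between animals.

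Oligodendrocytes wrap axons of the central nervous system in myelin. Their precursors divide, leave the cycle, pass through a newly formed, membrane-building state and end as mature cells that maintain the sheath and supply the axon. Genes of iron, pH, pteridine and lipid handling are used as markers of the mature cells, while the genes of the myelin proteins are most active while the sheath is laid down. None of the 8 genes is private to oligodendrocytes, since Il33 is also found in astrocytes, Apod and Gsn in fibroblasts of the meninges and of vessels, Trf in the choroid plexus and Car2 in the choroid plexus and red blood cells. In such bulk libraries, fewer cells of a type and less RNA per cell cannot be told apart.

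The genes lie on 7 chromosomes of GRCm38 (GENCODE M21) and all are protein-coding. Abca8a, a transporter of the ATP-binding cassette A family that moves lipids, spans chr11:110025634-110095978 on the minus strand, and Apod, a secreted lipocalin that binds small lipids, chr16:31296192-31314808 on the minus strand. Anln, an anillin that scaffolds actin and septins, spans chr9:22332012-22389188 on the minus strand, and Gsn, the actin-severing protein gelsolin, chr2:35256380-35307892 on the plus strand. Il33, a cytokine of the interleukin-1 family that is stored in nuclei, spans chr19:29925114-29960718 on the plus strand. Trf, the iron carrier transferrin, spans chr9:103204001-103230444 on the minus strand, Car2, the cytosolic carbonic anhydrase, chr3:14886273-14900770 on the plus strand, and Qdpr, which regenerates tetrahydrobiopterin, chr5:45434021-45450236 on the minus strand. Of the words of 100 bases in the Trf transcripts, 53.2% also occur in Gm20425, which overlaps it on the same strand and had 0 counts in all 48 libraries, and whether reads falling on both genes were counted is not stated, so that the level of Trf is uncertain. For Qdpr, 6.35% of the words are shared with Gm42413 on the opposite strand, and reads were counted without regard to strand.

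The table of RefSeq promoters used here (GRCm38.p6) gave the 250 bases before a start site for 6 of the 8 genes, with 9 start sites in all. Trf and Car2 were not matched. Shown are those of Abca8a, Il33 and Apod, which had the largest rises among the genes called higher at 5m than at 3w in input_TH. That of Gsn, which was called lower, is shown too, each 5′ to 3′ on the strand of the gene. Anln and Qdpr were also called higher and are not shown. Capitals mark matches to 4 motifs on either strand, none of which overlap. Of all 32851 such windows in the table, 16.5% hold the SOX core ACAAAG and 10.7% the related SOX core ACAATG. The E-box CAGCTG occurs in 13.0% of them and the TATA box, written TATAAA, in 12.4%.
Abca8a, chr11:110095979-110096187, minus strand: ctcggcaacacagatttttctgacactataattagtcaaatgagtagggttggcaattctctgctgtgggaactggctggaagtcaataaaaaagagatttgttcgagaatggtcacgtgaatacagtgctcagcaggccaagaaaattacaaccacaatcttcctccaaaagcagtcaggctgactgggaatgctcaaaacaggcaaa
Il33, second start site, chr19:29945540-29945789, plus strand: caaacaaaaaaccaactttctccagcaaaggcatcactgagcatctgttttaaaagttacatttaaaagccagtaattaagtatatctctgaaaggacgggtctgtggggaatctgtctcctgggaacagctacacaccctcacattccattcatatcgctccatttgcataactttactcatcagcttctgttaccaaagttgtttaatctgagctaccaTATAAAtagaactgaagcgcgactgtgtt
Apod, chr16:31314809-31315058, minus strand: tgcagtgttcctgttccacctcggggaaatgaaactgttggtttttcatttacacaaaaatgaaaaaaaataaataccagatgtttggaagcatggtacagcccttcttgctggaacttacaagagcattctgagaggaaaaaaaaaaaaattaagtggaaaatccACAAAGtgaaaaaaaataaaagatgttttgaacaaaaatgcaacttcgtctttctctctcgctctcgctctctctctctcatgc
Gsn, first start site, chr2:35256109-35256358, plus strand: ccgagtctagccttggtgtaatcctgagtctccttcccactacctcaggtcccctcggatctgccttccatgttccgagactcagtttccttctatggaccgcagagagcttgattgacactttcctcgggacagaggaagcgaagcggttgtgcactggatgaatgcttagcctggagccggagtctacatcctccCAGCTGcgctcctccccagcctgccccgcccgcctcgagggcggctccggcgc
The line for Abca8a leaves out the 41 bases next to the RefSeq start, which lie inside a longer GENCODE transcript, and none of the motifs was found in its whole window of 250 bases. TATAAA began 29 bases before the second start of Il33 and 203 bases before the first, ACAAAG began 84 bases before the start of Apod, and CAGCTG began 53 bases before the first start of Gsn and 216 before the second. No match was found before the third start of Gsn or the start of Anln or Qdpr. The matches are a description of these windows.

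The total count of a library lay between 1780267 and 18590040, with a median of 3756951 in input_SYN and between 7298371 and 10815833.5 in the other fractions. Levels are given as CPM, counts scaled to these totals, and the 8 genes together held 0.0453% of all counts. The lowest count of any of them was 5, for Abca8a in 1 library, and counting error is largest for Abca8a and Trf. Compared per kilobase of exon, the mean level over the 48 libraries was highest for Qdpr (51.0 CPM per kb), followed by Apod (37.8), Gsn (34.4) and Car2 (33.4). Il33 (7.52 CPM per kb), Trf (3.57), Anln (2.50) and Abca8a (1.74) were lower. Fold changes come from the quasi-likelihood test of edgeR with TMM scaling, a gene is called when its adjusted p over all genes tested was under 0.05, and the sizes are given as log2 fold change ± SE. The SE was taken as the absolute log2 fold change over the square root of the F statistic of that test.

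Abca8a was the gene with the widest range over the 12 groups. In input_TH, the 4 mice at 3w had 2.65, 1.87, 1.93 and 2.99 CPM, those at 5m 11.7, 9.18, 12.8 and 11.9 CPM and those at 18m 13.9, 13.5, 15.1 and 13.6 CPM. In SC_TH, the levels were 2.88, 1.82, 1.97 and 2.29 CPM at 3w, 12.0, 13.4, 10.8 and 10.1 CPM at 5m and 13.1, 14.3, 17.4 and 16.9 CPM at 18m. Every library of 3w was thus below every library of 5m and 18m in both fractions. In input_SYN the group levels were 3.17 ± 0.463, 12.1 ± 2.15 and 19.4 ± 6.09 CPM (mean ± SD, n = 4), and in SC_SYN 4.50 ± 0.989, 15.1 ± 1.11 and 19.9 ± 2.25 CPM. From 3w to 5m the log2 fold change was 2.21 ± 0.15 in input_TH, 2.40 ± 0.20 in SC_TH, 1.90 ± 0.28 in input_SYN and 1.79 ± 0.16 in SC_SYN, and all 4 were called. Between 5m and 18m it was 0.35 ± 0.12, 0.43 ± 0.13, 0.60 ± 0.21 and 0.35 ± 0.14 in the same order, and none was called, but that in input_TH was called when mouse 188 was left out (0.35). Of the 4 other genes of the Abca5 to Abca9 cluster, edgeR with TMM called none at either step in any fraction, while from 5m to 18m in input_TH DESeq2 called 1 and edgeR with library size 2. Of the 11 neighbouring pairs in the order of its 12 group levels, 10 overlapped, and the gap that did not lay between input_TH at 5m and SC_SYN at 3w.

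Apod stood at 64.5, 42.7, 57.3 and 52.8 CPM in input_TH at 3w, at 186, 71.7, 71.8 and 77.3 CPM at 5m and at 103, 72.9, 73.8 and 85.9 CPM at 18m. One library of 5m, that of mouse 191, was far above the other 3. In SC_TH the levels were 67.4, 59.1, 66.9 and 49.7 CPM at 3w, 122, 101, 98.5 and 108 CPM at 5m and 157, 127, 159.5 and 145 CPM at 18m, and the 3 ages did not overlap. The log2 fold change from 3w to 5m was 0.84 ± 0.10 in SC_TH and that from 5m to 18m 0.46 ± 0.10, both called, and the later call was lost when mouse 193, 195, 197 or 198 was left out (0.42 to 0.47). In input_TH it was 0.85 ± 0.24 from 3w to 5m, a call that was lost when mouse 188, 189 or 190 was left out (0.75 to 0.87). This call was also lost with DESeq2 in place of edgeR (0.86) and when only the compared libraries were fitted (0.85). In synaptosomes Apod was already higher at 3w, with 84.1 to 145 CPM in SC_SYN, and the later ages, 105 to 129.8 CPM at 5m and 115 to 157 CPM at 18m, overlapped with it. None of the 4 age comparisons of Apod in synaptosomes was called, with log2 fold changes from 0.16 to 0.28. A list of apolipoproteins and lipocalins also held other genes, such as Bsg and Lepr. Of 6 of its genes, 1 rose and 2 fell in SC_TH from 3w to 5m. All 11 neighbouring pairs in the order of its group levels overlapped.

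**Figure D1:**
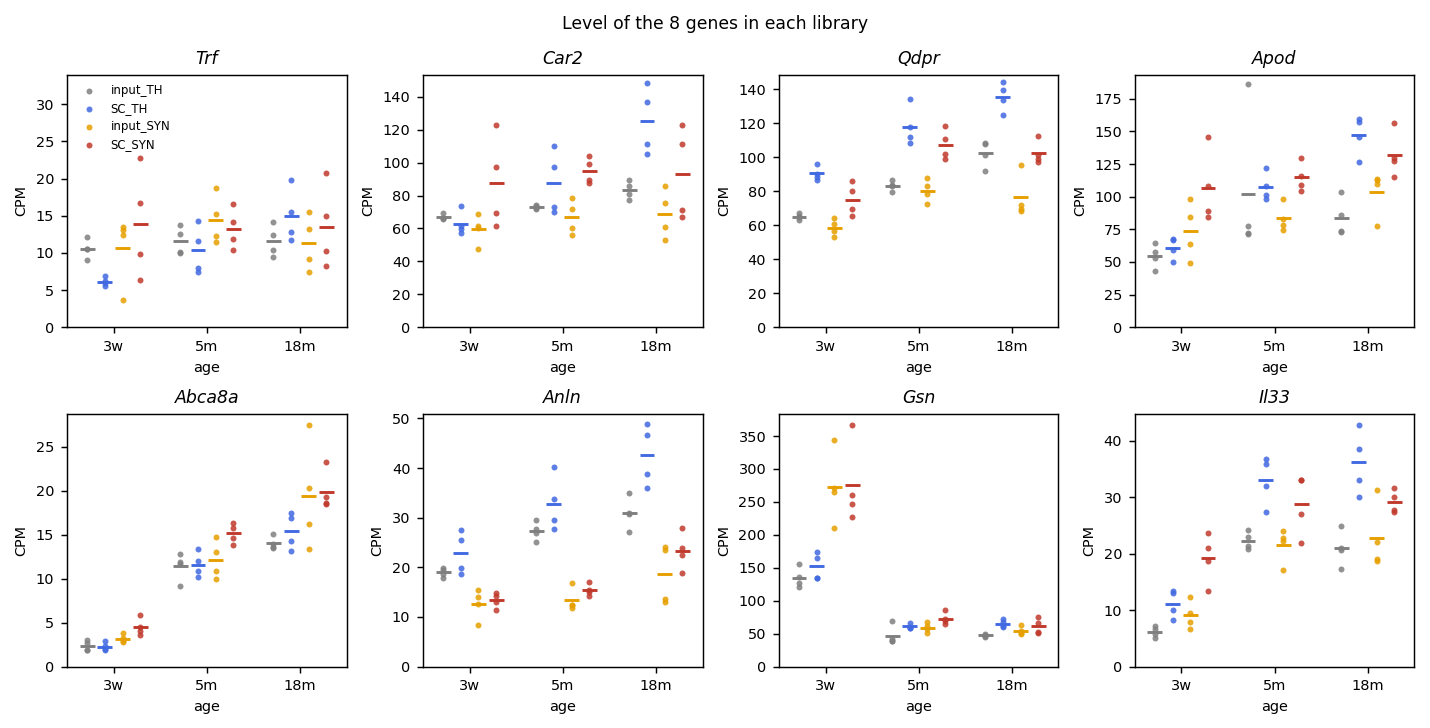
Level of each of the 8 genes in CPM (linear axes from 0) in every library, by age and fraction; points are mice (n = 4 per group) and bars the group means. Abca8a and Il33 stand lowest at 3w in each fraction, Gsn stands highest at 3w in each fraction, and Trf stays between 3.72 and 22.7 CPM.

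Il33 rose between 3w and 5m in all 4 fractions. In input_TH it had 6.65, 7.10, 5.09 and 5.78 CPM at 3w, 20.8, 22.9, 24.2 and 21.4 CPM at 5m and 24.9, 17.3, 20.9 and 20.7 CPM at 18m. In SC_TH it had 9.97, 13.0, 8.29 and 13.4 CPM at 3w, 36.0, 36.7, 32.0 and 27.4 CPM at 5m and 38.6, 30.1, 42.9 and 33.1 CPM at 18m. In SC_SYN the 3w libraries were higher, 21.1, 23.6, 18.7 and 13.4 CPM, and the highest of them was above the lowest of 5m (22.0 to 33.1 CPM). The log2 fold change from 3w to 5m was 1.80 ± 0.12 in input_TH, 1.63 ± 0.16 in SC_TH, 1.16 ± 0.22 in input_SYN and 0.63 ± 0.17 in SC_SYN, all called. The call in SC_SYN was lost when mouse 189, 190, 192, 193 or 194 was left out (0.48 to 0.66). Scaling by library size also lost this call (0.59). The 4 values from 5m to 18m lay between -0.04 and 0.14, with overlapping libraries and no call. The astrocyte markers, a cell type that also holds Il33, summed to 5677 to 6326 CPM in input_TH at 3w and to 4783 to 5364 CPM at 5m, with 0 of 8 called higher and 3 lower and no marker at 0, and their part in the level of Il33 was not tested. Of the other genes of interleukin-33 signalling, 1 of 5 tested fell in SC_SYN from 3w to 5m (Il1rap, the co-receptor, -0.47 ± 0.11) and edgeR with TMM called none higher in any fraction at either step.

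The cytoskeletal genes Gsn and Anln moved in opposite directions in TH. Gsn had 156, 127, 137 and 120.2 CPM in input_TH at 3w, 68.8, 41.4, 38.9 and 38.5 CPM at 5m and 46.8, 48.1, 45.3 and 50.0 CPM at 18m. In SC_SYN it had 367, 226, 261 and 246 CPM at 3w, 85.4, 68.7, 71.5 and 65.3 CPM at 5m and 51.2, 65.5, 75.6 and 52.6 CPM at 18m. Every library of 3w was above every library of the later ages in all 4 fractions. The log2 fold change from 3w to 5m was -1.58 ± 0.14 in input_TH, -1.30 ± 0.09 in SC_TH, -2.20 ± 0.15 in input_SYN and -1.87 ± 0.17 in SC_SYN, all called, and all 4 kept their call under each of the 17 alternatives. The later values, from 5m to 18m, were between -0.28 and 0.10 and none was called, but without mouse 191 the change in input_TH was 0.30 and was called. Gsn was thus highest in the youngest mice, against the name given to the group. Of the other severing and capping genes, 1 rose and 1 fell of 7 in input_TH from 3w to 5m and 1 rose of 6 in SC_TH. Flii (flightless) rose in SC_TH from 3w to 5m (0.30 ± 0.08), Cfl1 (cofilin) fell in input_TH (-0.24 ± 0.05), and Dstn (destrin) fell in input_TH from 5m to 18m (-0.22 ± 0.07).

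Anln had 19.9, 17.9, 19.4 and 18.7 CPM in input_TH at 3w, 25.2, 29.5, 27.0 and 27.8 CPM at 5m and 34.9, 31.0, 30.7 and 27.2 CPM at 18m. In SC_TH it had 25.5, 27.6, 19.8 and 18.6 CPM at 3w, 33.7, 40.2, 27.8 and 29.5 CPM at 5m and 46.8, 36.0, 48.9 and 38.9 CPM at 18m, and the libraries of 5m and 18m overlapped. From 3w to 5m it rose in input_TH (0.48 ± 0.08) and in SC_TH (0.54 ± 0.15), the latter call being lost when mouse 189 or 190 was left out (0.44 to 0.45). The change from 5m to 18m in input_TH (0.23 ± 0.08) was called only when mouse 198 was left out (0.29), and that in SC_TH (0.40 ± 0.13) only without a filter (0.41), of the alternatives run. In input_SYN (0.06 ± 0.25) and SC_SYN (0.25 ± 0.14) the change from 3w to 5m was not called. Between 5m and 18m the libraries of SC_SYN did not overlap, with 14.3 to 17.0 CPM at 5m and 18.9 to 27.9 CPM at 18m (0.54 ± 0.14), which was called by DESeq2 (0.53) and not by edgeR. Anln is also a gene of dividing cells, and of the cycling cell markers 4 of 6 tested fell and none rose in input_TH from 3w to 5m, and 3 of 4 fell in SC_TH. The summed level of all 8 such markers was 13.0 to 18.4 CPM in input_TH at 3w and 5.71 to 5.98 CPM at 5m, with no marker at 0, and their part in the level of Anln was not tested. Of its septin and anillin partners, Sept2 (-0.80 ± 0.16) and Cdc42 (-0.42 ± 0.11) fell in SC_SYN and Sept8 (-0.48 ± 0.11) in input_SYN from 3w to 5m, and over the list 3 of 8 fell and 0 rose in SC_SYN.

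Among the metabolic genes, Qdpr rose in all 4 fractions. It had 63.1, 67.1, 64.9 and 65.2 CPM in input_TH at 3w, 83.8, 86.6, 83.2 and 79.6 CPM at 5m and 92.0, 101, 108 and 108 CPM at 18m, and the 3 ages did not overlap. From 3w to 5m its change was called in input_TH (0.31 ± 0.06), SC_TH (0.41 ± 0.08), input_SYN (0.46 ± 0.12) and SC_SYN (0.56 ± 0.12). The call in input_SYN was lost when any 1 mouse other than 197 was left out (0.42 to 0.52). It was also lost with library size in place of TMM (0.46) and without a filter (0.45). From 5m to 18m it rose in input_TH (0.35 ± 0.06), while SC_TH (0.21 ± 0.08), input_SYN (-0.12 ± 0.12) and SC_SYN (-0.11 ± 0.12) gave no call. Of the 5 or 6 other genes of tetrahydrobiopterin tested in TH, Spr, which makes the cofactor, rose in SC_TH from 3w to 5m (0.46 ± 0.11). From 5m to 18m 1 was called in input_TH (0 with library size), and none fell at either step.

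In input_TH, Car2 had 69.4, 65.6, 66.3 and 66.1 CPM at 3w, 72.0, 73.7, 72.5 and 74.0 CPM at 5m and 85.7, 77.0, 89.5 and 81.0 CPM at 18m. The change from 3w to 5m was 0.08 ± 0.05 and was not called, and that from 5m to 18m was 0.24 ± 0.05 and was called. In SC_TH it went from 59.4, 57.0, 73.9 and 61.5 CPM at 3w to 109.9, 73.3, 69.7 and 97.1 CPM at 5m and 105, 111, 148 and 137 CPM at 18m. From 5m to 18m the change there was 0.52 ± 0.14 with overlapping libraries, not called, but it was called with DESeq2 (0.53), without a filter (0.54) and when mouse 189 (0.53) or 191 (0.65) was left out. The step from 3w to 5m in SC_TH (0.50 ± 0.15) was called although 1 library of 3w was above 2 of 5m, and the call was lost when mouse 187, 188, 190, 191 or 194 was left out (0.37 to 0.47). In synaptosomes no age change of Car2 was called, and at 3w and 18m its SC_SYN libraries were widely spread, 61.5 to 123 and 67.2 to 123 CPM. Of the other carbonic anhydrase and bicarbonate genes, Car8 (-0.94 ± 0.15) and the exchanger Slc4a2 (-0.58 ± 0.14) fell in SC_TH and Car14 (-0.58 ± 0.17) in SC_SYN from 3w to 5m, and edgeR with TMM called none of 10 higher at either step in any fraction. Red blood cell markers, which belong to another source of Car2, summed to 471 to 624 CPM in input_TH at 3w and 178 to 385 CPM at 5m, with 5 of 5 tested genes lower, and their part in the level of Car2 was not tested. Choroid plexus markers, from a further source of Car2, were far higher in input_TH of mouse 191 at 5m and mouse 195 at 18m than in the other mice of these ages. Car2 was 72.0 and 85.7 CPM in these libraries, and the part of the choroid plexus in its level was not tested.

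Trf had 12.1, 9.08, 10.6 and 10.6 CPM in input_TH at 3w, 10.1, 13.7, 9.99 and 12.5 CPM at 5m and 14.1, 10.4, 12.4 and 9.48 CPM at 18m, and the 3 ages overlapped. In SC_TH it had 6.21, 5.93, 6.88 and 5.56 CPM at 3w, 14.2, 8.01, 7.44 and 11.6 CPM at 5m and 12.9, 11.8, 19.7 and 15.5 CPM at 18m. The rise from 3w to 5m in SC_TH (0.78 ± 0.23) was called with no overlap, and the call was lost when mouse 187, 188, 190, 191 or 194 was left out (0.57 to 0.78). The other 7 age changes of Trf were between -0.34 and 0.52 and none was called, but the change in SC_TH from 5m to 18m (0.52 ± 0.19) was called without a filter (0.53) and when mouse 191 was left out (0.73). The 4 SC_SYN libraries of 3w spread from 6.36 to 22.7 CPM. Choroid plexus markers, from another tissue that makes transferrin, summed to 1697 CPM in input_TH of mouse 195 against 89.9 to 143 CPM in the other 3 mice of 18m, while Trf was 14.1 CPM in that mouse and 9.48 to 12.4 CPM in the others. In mouse 191 of 5m their sum was 1125 CPM against 51.6 to 150.3 CPM, while Trf was 10.1 CPM there and 9.99 to 13.7 CPM in the others. Their part in the level of Trf was not tested. In the list of other iron-handling genes, 2 rose and 3 fell of 11 in SC_TH from 3w to 5m. Tfrc, the transferrin receptor, fell in SC_SYN (-0.97 ± 0.22) and Slc40a1, the iron exporter ferroportin, fell in input_TH (-0.74 ± 0.13).

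Counted over the group, from 3w to 5m 6 of the 8 genes were called in input_TH (5 higher and 1 lower), where 11.8% of all genes tested were called. In SC_TH it was 8 (7 higher and 1 lower, with 17.9% of all genes), in input_SYN 4 (3 higher and 1 lower, with 3.22%) and in SC_SYN 4 (3 higher and 1 lower, with 8.05%). The gene called lower was Gsn in each fraction, and Abca8a, Il33 and Qdpr were called higher in each. The median log2 fold change of the 8 was 0.39 in input_TH, 0.66 in SC_TH, 0.28 in input_SYN and 0.21 in SC_SYN, beside medians between -0.01 and 0.01 over all genes. From 5m to 18m 2 were called in input_TH (Car2 and Qdpr, both higher, with 15.5% of all genes called) and 1 in SC_TH (Apod, higher, with 2.17%). In input_SYN and SC_SYN edgeR called none, where 0.139% and 0.014% of all genes were called. At an unadjusted p under 0.05 edgeR gave 1 of the 8 in input_SYN and 2 in SC_SYN, and DESeq2 called 0 and 1 after adjustment. In input_TH and SC_TH the unadjusted counts were 4 and 6 of the 8, and DESeq2 called 2 in each. All 8 values of SC_TH were positive at this step. The median of the 8 from 5m to 18m was 0.15 in input_TH, 0.41 in SC_TH, 0.015 in input_SYN and 0.0087 in SC_SYN, beside medians between -0.00014 and 0.0106 over all genes. Both age steps share the libraries of 5m. The genes had been selected on levels in these libraries, and nothing is read from these counts against the background.

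**Figure D2:**
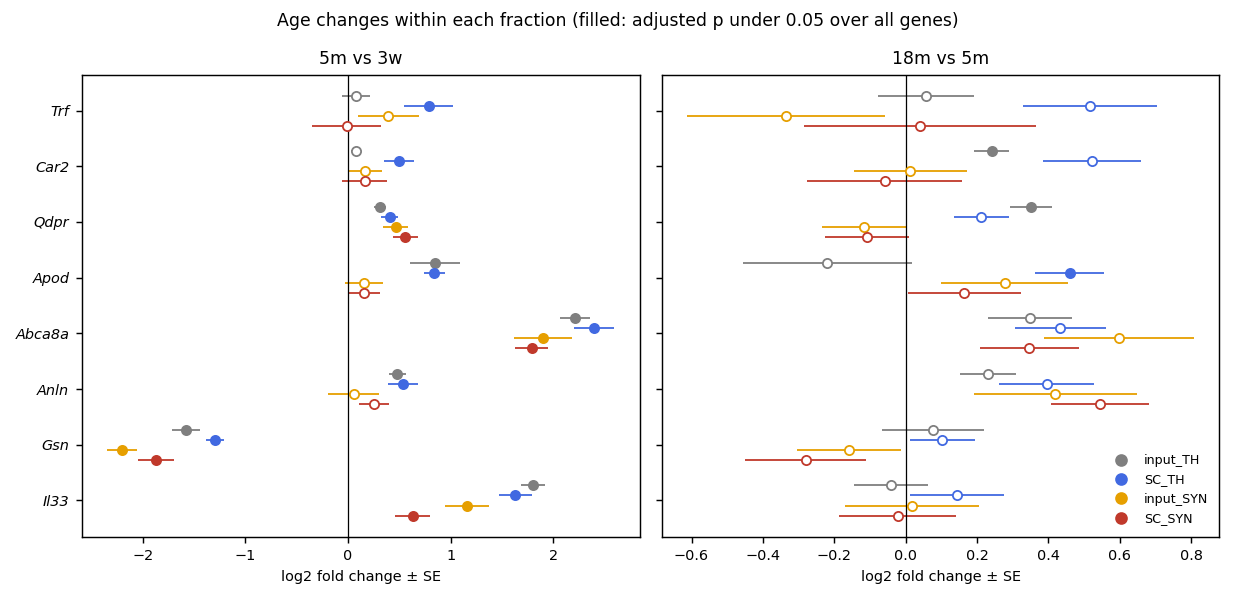
Log2 fold change ± SE (edgeR, TMM) of each gene from 3w to 5m (left) and from 5m to 18m (right), on separate axes, in the 4 fractions (4 mice per group); filled points are calls at an adjusted p under 0.05 over all genes. Gsn lies between -2.20 and -1.30 in the left panel, Abca8a between 1.79 and 2.40, and 3 points are filled in the right panel.

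The library of input_TH of mouse 191 (5m) stood apart for Apod and Gsn. Apod was 186 CPM there and 73.6 ± 3.23 CPM in the other 3 mice of 5m, and Gsn was 68.8 CPM against 39.6 ± 1.59 CPM. Car2, Qdpr, Trf, Il33, Abca8a and Anln of this library did not stand apart by Dixon's criterion, with 72.0 CPM of Car2 against 72.5 to 74.0 CPM. All 8 of the meningeal and perivascular fibroblast markers were higher in this library than in the other 3, and their sum was 751 CPM against 114 to 145 CPM. Among them Col1a2, a collagen chain, was 146 CPM against 21.6 to 30.4 CPM. The summed fibroblast level was 226 to 379 CPM at 3w and 115 to 266 CPM at 18m, with no marker at 0 in any group. Choroid plexus markers summed to 1125 CPM in the same library against 51.6 to 150.3 CPM. Without this mouse, the change of Apod in input_TH from 3w to 5m was 0.40 and still called, and that from 5m to 18m went from -0.22 to 0.23 without being called. Gsn changed by -1.81 from 3w to 5m without it, and was called with and without it. The part of the other tissue in these values was not tested.

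**Figure D3:**
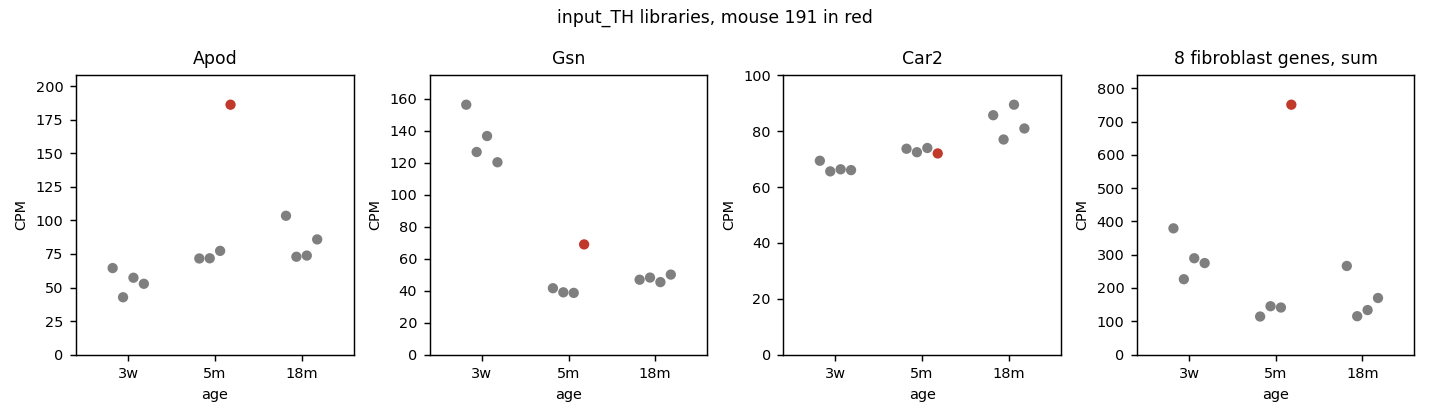
CPM (linear axes from 0) in the 12 input_TH libraries by age, for Apod, Gsn, Car2 and the sum of the 8 meningeal and perivascular fibroblast markers; each point is a mouse and mouse 191 is red. Mouse 191 has 186 CPM of Apod and a fibroblast sum of 751 CPM, above all other libraries of this fraction, and lies with the other mice of 5m for Car2.

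Genes of the myelin sheath fell from 3w to 5m, as Gsn did. Of 12 core myelin genes, 12 fell in input_TH from 3w to 5m and 10 in SC_TH, 10 in input_SYN and 10 in SC_SYN, and none rose, with medians of -1.35, -1.0, -1.44 and -1.41. Mog, on the outer face of the sheath, changed by -1.99 ± 0.14 in input_SYN. Of 12 genes of newly formed cells, 11, 10, 8 and 10 fell in the 4 fractions and none rose. Of 18 other genes of late mature cells, 2 rose and 5 fell in input_TH and 4 rose and 2 fell in SC_TH from 3w to 5m. In synaptosomes 1 rose and 4 fell of 17 in input_SYN, and 2 rose and 4 fell of 18 in SC_SYN. Hapln2, a link protein of the node, rose in SC_TH (1.08 ± 0.17), while Tspan2 (-2.12 ± 0.14 in SC_SYN) and Adamts4 (-1.71 ± 0.13 in input_SYN) fell. From 5m to 18m, 8 of the 18 rose and 1 fell in input_TH, and 3 rose in SC_TH. In input_TH 5 of the 12 core myelin genes and 3 of the 12 genes of newly formed cells were also called at this step, in either direction. There 15.5% of all genes tested were called. In SC_TH edgeR with TMM called 0 of these 2 lists. These lists were written with earlier results of the same libraries known.

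Set against the median of the 12 core myelin genes in the same library, the log2 ratio of Abca8a in input_TH was -6.62 ± 0.33 at 3w, -3.07 ± 0.21 at 5m and -2.65 ± 0.06 at 18m (mean ± SD, n = 4). The ratio of Il33 was -5.32 ± 0.24, -2.11 ± 0.14 and -2.09 ± 0.19, and that of Qdpr -1.96 ± 0.13, -0.22 ± 0.07 and 0.19 ± 0.10. The ratio of Gsn was -0.92 ± 0.08, -1.08 ± 0.38 and -0.91 ± 0.08 and moved less with age than that of the other 7 in this fraction. Over the 12 group means, the Pearson r of Gsn with the core myelin median was 0.99 and that of the other 7 lay between -0.80 and 0.06, a description over groups that share animals. Between mice of a group Gsn did not stand apart in this way, since the r of the deviations from the group means over the 48 libraries was 0.60 for Gsn, 0.60 for Trf, 0.56 for Car2 and 0.46 for Apod, a description over libraries that share animals and scaling. In SC_SYN the ratio of Apod went from -2.04 ± 0.23 at 3w to 0.32 ± 0.20 at 18m, and that of Trf from -5.08 ± 0.68 to -3.03 ± 0.54, although neither gene was called for age in that fraction.

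**Figure D4:**
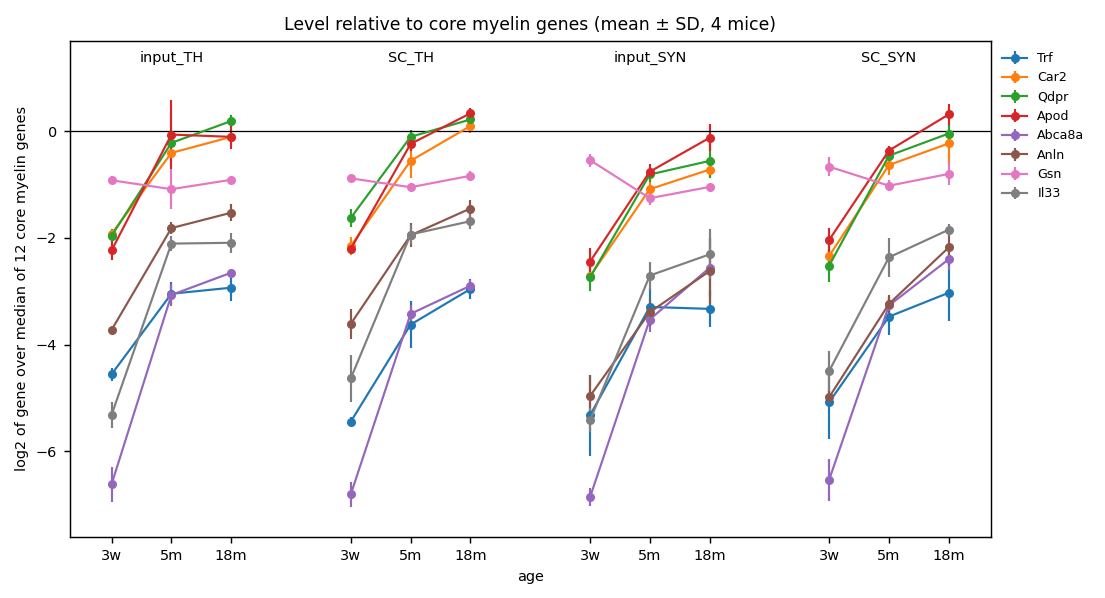
Log2 of the level of each gene over the median of 12 core myelin genes in the same library (log2 scale; mean ± SD, n = 4 mice), by fraction and age. The ratio of 7 genes is lowest at 3w in every fraction, and that of Gsn stays between -1.25 and -0.54.

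The study takes SC_SYN over SC_TH as a measure of translation in synaptosomes. With TMM scaling, 7 of the 8 genes were called at 3w (7 higher in SC_SYN, with 63.5% of all genes called in either direction), 8 at 5m (7 higher and 1 lower, with 67.8%) and 4 at 18m (3 higher and 1 lower, with 62.1%). Abca8a was higher in SC_SYN by 1.57 ± 0.21 at 3w, 0.98 ± 0.13 at 5m and 0.88 ± 0.13 at 18m, with no overlap of the libraries at any age on either scale. Gsn was higher by 1.40 ± 0.14, 0.84 ± 0.14 and 0.45 ± 0.14, and Apod by 1.35 ± 0.14, 0.68 ± 0.14 and 0.38 ± 0.14, but scaled by library size the values at 18m were -0.08 for Gsn and -0.16 for Apod. Il33 (1.36 ± 0.19 at 3w), Trf (1.69 ± 0.34) and Car2 (1.02 ± 0.21) were called at 3w and 5m and not at 18m, when their values were 0.22 ± 0.15, 0.44 ± 0.28 and 0.11 ± 0.20, and library size made all 3 negative at 18m and Il33 at 5m (-0.19). Qdpr was called higher at 3w (0.28 ± 0.10) and 5m (0.45 ± 0.09), with -0.27 and -0.14 when scaled by library size. Anln alone was lower in SC_SYN, with -0.49 ± 0.14 at 5m and -0.36 ± 0.14 at 18m, both called, and -0.23 ± 0.16 at 3w, not called. At 18m the call of Gsn was lost when mouse 196 or 197 was left out (0.34 to 0.37), that of Apod when mouse 196 or 197 was left out (0.32 to 0.33) and that of Anln when mouse 196 or 197 was left out (-0.34 to -0.28). At 5m the call of Il33 was lost when mouse 192, 193, 194 or 198 was left out (0.25 to 0.41) and that of Trf when mouse 193 was left out (0.66). At 3w that of Qdpr was lost when mouse 188, 189 or 190 was left out (0.22 to 0.27). The calls of Qdpr at 3w, Il33 at 5m and Apod at 18m were also lost under other filters. With at least 10 counts in every library the values were 0.15, 0.28 and 0.29. Without a filter they were 0.23, 0.33 and 0.32. Anln at 3w was called lower with at least 10 counts in every library (-0.36) and with library size (-0.78).

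In the input, 7 of 8 were called at 3w (all higher in input_SYN, with 71.0% of all genes called), 7 at 5m (6 higher and 1 lower, with 72.7%) and 6 at 18m (all higher, with 72.3%). Gsn was the highest of the 8 at 3w, with 1.59 ± 0.15, 1.00 ± 0.16 and 0.77 ± 0.16 at the 3 ages, followed at 3w by Il33 (1.23 ± 0.20), Apod (1.07 ± 0.24) and Abca8a (1.02 ± 0.29). Trf was higher by 0.66 ± 0.24, 0.98 ± 0.23 and 0.62 ± 0.21, calls that were lost when mouse 187, 188 or 190 was left out (0.51 to 0.61) at 3w and when mouse 196 or 198 was left out (0.32 to 0.51) at 18m. The calls of Car2 (TMM, negative by library size at all 3 ages) were lost when mouse 187 was left out (0.33) at 3w and when mouse 196 or 198 was left out (0.15 to 0.24) at 18m. They were also lost with at least 10 counts in every library (0.14, 0.22 and 0.018 at 3w, 5m and 18m). DESeq2 lost that at 18m (0.21). Anln was lower at 5m (-0.40 ± 0.17), a call that was lost when mouse 191, 193 or 194 was left out (-0.38). For Apod at 5m (0.38 ± 0.24, not called) the fit with the mouse as a block gave 0.48 and the fit without mouse 191 0.84, both called.

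These differences between compartments depend on the scaling. Library size in place of TMM moved the median of all genes by -0.65 to -0.53 on the log2 scale, from medians between -0.18 and -0.04 to medians between -0.83 and -0.59. Abca8a stayed above 0 in all 6 comparisons (1.02, 0.39 and 0.35 in SC and 0.44, 0.086 and 0.41 in the input). Trf stayed above 0 in 5 (-0.10 in SC at 18m), with 0.077, 0.33 and 0.033 in the input. With library size the input calls of Abca8a at 3w and 5m and of Trf at every age were lost. That of Trf in SC at 5m was lost as well. Gsn stayed above 0 in 5, the exception being -0.08 in SC at 18m, but its calls at 5m and 18m were lost in SC and in the input. Qdpr turned to negative values in all 6, between -0.44 and -0.06, and Anln was below 0 in all 6, down to -1.08. Car2, Il33 and Apod were below 0 in 4, 3 and 2 of the 6. Relative to the median of all genes, 7 of the 8 were higher in synaptosomes in all 6 comparisons under both scalings, Abca8a by 0.92 to 1.61 and Qdpr by 0.19 to 0.77 with TMM. Anln was between -0.40 and 0.19. Other glial genes were higher in synaptosomes too, with 8 of 8 astrocyte, 8 of 8 microglia and 10 of 12 core myelin genes called higher in SC_SYN than SC_TH at 5m (medians 1.46, 1.61 and 0.70). The 8 neuron markers gave 3 higher and 4 lower.

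**Figure D5:**
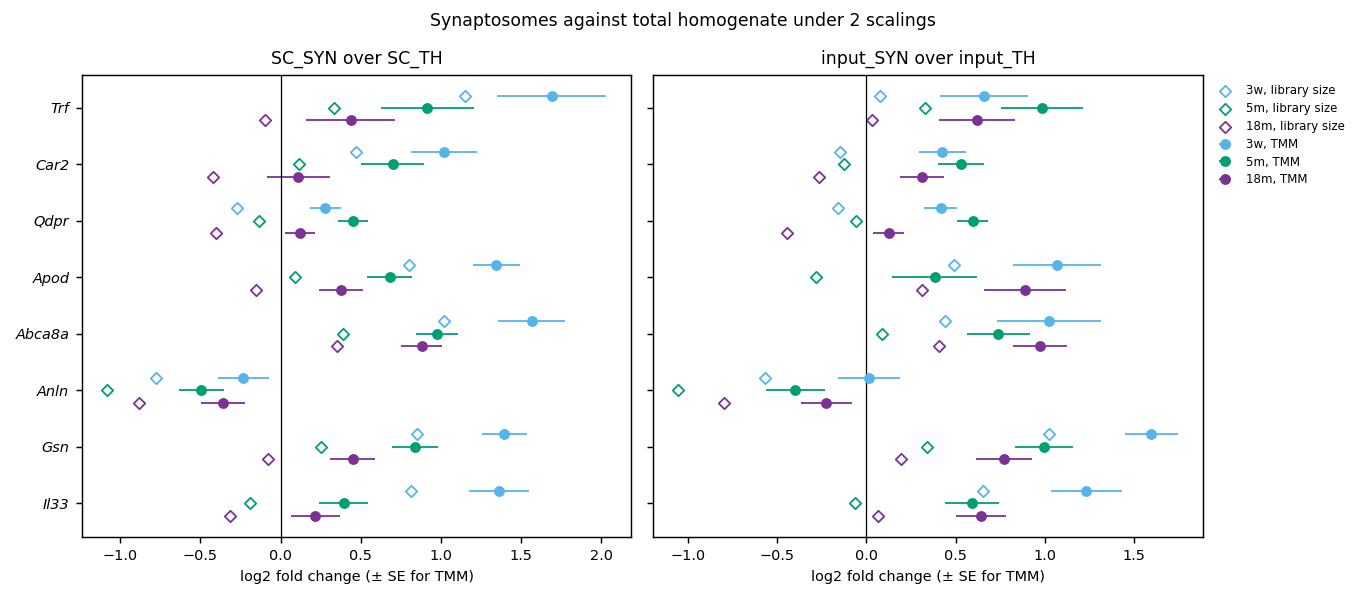
Log2 fold change of each gene in synaptosomes over total homogenate, for SC (left) and input (right), at the 3 ages (4 mice per group); filled circles with SE are TMM-scaled and open diamonds scaled by library size. Every diamond lies left of its circle, Abca8a stays right of 0 under both scalings, and Qdpr changes side.

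SC over input within a compartment is the study's measure of translational efficiency. The pellet also held nuclear RNA, with Malat1 at 7174 CPM in SC_TH at 5m and 4121 CPM at 18m, so SC is not RNA on ribosomes alone. In TH, 4 of the 8 genes were called at 3w (3 higher in SC and 1 lower, with 52.8% of all genes called), 5 at 5m (all higher, with 62.1%) and 7 at 18m (all higher, with 64.0%). Il33 was higher in SC_TH by 0.85 ± 0.18, 0.66 ± 0.12 and 0.84 ± 0.12 and Qdpr by 0.52 ± 0.07, 0.59 ± 0.07 and 0.45 ± 0.07, with no overlap of the libraries at any age. Apod was higher by 0.86 ± 0.19 at 18m, when the libraries did not overlap, and by 0.22 ± 0.21 and 0.19 ± 0.19 at the younger ages, without a call. Without mouse 191 the value of Apod at 5m was 0.59 and was called. Trf was lower in SC_TH at 3w (-0.72 ± 0.22, libraries of 5.56 to 6.88 CPM against 9.08 to 12.1 CPM), not called at 5m (-0.03 ± 0.18) and higher at 18m (0.43 ± 0.17), the last call being lost when mouse 197 or 198 was left out (0.31 to 0.34). That call of Trf was also lost with library size (0.38) and with at least 10 counts in every library (0.33). Anln was higher by 0.32 ± 0.13, 0.35 ± 0.11 and 0.52 ± 0.11. Its calls were lost when mouse 187, 188, 191, 194 or 195 was left out (0.19 to 0.32) at 3w and when mouse 191 was left out (0.31) at 5m. At 3w its call was also lost with DESeq2 (0.31), library size (0.27) and at least 10 counts in every library (0.25). At 5m it was also lost with library size (0.25). Car2 was called at 5m (0.36 ± 0.11, lost when mouse 191 was left out (0.24)) and at 18m (0.64 ± 0.11), and Gsn at 5m (0.48 ± 0.12) and 18m (0.51 ± 0.12) and, with the mouse as a block, at 3w (0.22). Abca8a was called at no age, with -0.06 ± 0.23, 0.11 ± 0.13 and 0.20 ± 0.12.

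In SYN, SC over input was called for Il33 at 3w (0.94 ± 0.21) and for Qdpr at 5m (0.40 ± 0.12) and 18m (0.40 ± 0.12), 1 of 8 at each age, where 18.5%, 20.0% and 12.6% of all genes were called. The call of Qdpr was lost when mouse 191 or 194 was left out (0.36 to 0.39) at 5m and when mouse 195, 196 or 198 was left out (0.33 to 0.38) at 18m. At 5m Apod (0.44 ± 0.18) and Car2 (0.49 ± 0.21) were higher in every library of SC_SYN than in every library of input_SYN without being called, and Apod was called without mouse 187 (0.43). Abca8a (0.42 ± 0.26, 0.30 ± 0.18 and 0.04 ± 0.17) and Trf (0.26 ± 0.36, -0.15 ± 0.34 and 0.23 ± 0.32) overlapped at all ages.

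Interaction terms compared the age changes of the 2 compartments. For SC, edgeR called none of the 8 from 3w to 5m (0.0301% of all genes called) or from 5m to 18m (0%), with 4 and 2 at an unadjusted p under 0.05 and none by DESeq2. From 3w to 5m the change in SC_SYN minus that in SC_TH was -0.97 ± 0.24 for Il33, -0.67 ± 0.20 for Apod, -0.59 ± 0.25 for Abca8a and -0.56 ± 0.20 for Gsn, and it was negative for 7 of the 8, Qdpr being the exception (0.17 ± 0.14). The larger rise of Il33 in SC_TH than in SC_SYN was thus not called as a difference. For the input, none was called from 3w to 5m (0.0224% of all genes), with 2 at an unadjusted p under 0.05 and none by DESeq2, and 1 was called from 5m to 18m (2.42%). This was Qdpr (-0.47 ± 0.12), which had 83.3 ± 2.87 and 102 ± 7.67 CPM in input_TH and 80.3 ± 6.64 and 76.3 ± 12.8 CPM in input_SYN at 5m and 18m. The call was lost when mouse 190, 191, 192, 193, 194, 196 or 198 was left out (-0.48 to -0.41). It was also lost with library size (-0.39) and without a filter (-0.45). The corresponding tests of SC minus input called none of the 8 in TH (2.33% of all genes from 3w to 5m and 1.78% from 5m to 18m) and none in SYN (0% at both steps), with 2 and 1 in TH and 0 and 0 in SYN at an unadjusted p under 0.05, and DESeq2 called none either. The comparisons share libraries and are not independent.

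The genes whose level over the 12 group means was most like the mean profile of the 8, or like 1 of them, were named by Pearson r among 10557 protein-coding genes. This mean does not stand for all 8. Their own r with it, of which each is a part, was 0.79 to 0.98 except for Anln (0.41) and Gsn (-0.18). With the mean of the 8 standardised profiles, Plekhb2 (0.956), Ntn5 (0.934), Rasgrf1 (0.933), Herpud1 (0.929) and Ass1 (0.927) came first, followed by Serpina3n, Tkt, Tnfaip6, B2m and Pcdhga2, which shares exons with its gene cluster, (0.926 to 0.909). Abca8a was most like C4b (0.955), a complement gene with a near-identical copy, C4a, between which reads may be split, and Il33 (0.955) and Qdpr (0.966) were both most like Ass1, an enzyme of arginine synthesis. Fyn (0.983) and Cldn11 (0.979), which are active while myelin forms, were among the genes most like Gsn. Anln was most like Ndrg1 (0.960), Apod like Rasgrf1 (0.959), Car2 like Tkt (0.971) and Trf like Tm2d3 (0.962). Among the 8, Apod and Car2 (0.93), Abca8a and Il33 (0.90) and Il33 and Qdpr (0.90) were most alike, and Gsn was unlike Anln (-0.73) and Abca8a (-0.58). The points share animals, fractions and scaling, and the values are a description.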

How the data were processed

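RNA of 48 libraries (12 mice, 4 fractions each, rRNA depleted, directional kit) was analysed. The authors deposited 1 table of raw read counts per gene, which, per the labels and the methods, they made with bcl2fastq 2.20.0.422, TopHat2 2.1 on GRCm38 and featureCounts without strand. Whether UMIs were used to remove duplicates, and which library was in which sequencing run, is not given in the sources used here. Of 48526 identifiers 48144 matched GENCODE, and the others held 0.0596% of the counts. Groups came from the sample labels.

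Counts were tested with the quasi-likelihood test of edgeR 4.0.16 in R 4.3.3, with TMM scaling, filterByExpr and Benjamini-Hochberg adjustment over all genes tested, in 28 comparisons (8 of age, 6 of SYN with TH, 6 of SC with input and 8 interactions). A call is an adjusted p under 0.05. CPM were divided by the library total. Alternatives were DESeq2 1.42.0, library size, no filter, a minimum of 10 counts per gene and library, a fit of the compared libraries alone, each of 12 mice left out, and the mouse as a replicate block. The libraries of 1 mouse come from 1 animal, and in 72 pairs the deviations from the group means over 11610 genes correlated with a median r of 0.142 (-0.604 to 0.635).

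The 8 genes and all lists were chosen with earlier results of these data known. All 8 are reported throughout. From other lists at most 3 genes were named, those with the largest called age change, no overlap of libraries and an average of 50 or more counts in the group where the gene was higher. Genes most like the 8 averaged 50 or more counts. Depth limits the precision of Abca8a and Trf most in input_SYN. One gene that this rule names is not reported here.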

Additional observations from a re-analysis of the deposited data

Results flagged for a closer look

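In 6 of 96 groups of 4 mice, 1 mouse lay apart by Dixon's test (its gap to the nearest mouse over the range of the 4, given in parentheses), where 4.8 are expected by chance at 1 in 20. In input_TH at 5m it was mouse 191, with 186 CPM of Apod against 71.7 to 77.3 CPM (0.951) and 68.8 CPM of Gsn against 38.5 to 41.4 CPM (0.904). In input_SYN at 18m it was mouse 197, with 77.4 CPM of Apod against 110.0 to 113 CPM (0.911) and 95.3 CPM of Qdpr against 68.3 to 72.0 CPM (0.863). In input_SYN at 5m mouse 192 had 16.8 CPM of Anln against 11.7 to 12.5 CPM (0.845), and at 3w mouse 189 had 3.72 CPM of Trf against 12.4 to 13.5 CPM (0.888).

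The change of Qdpr from 5m to 18m differed between compartments in the input, with -0.47 on the log2 scale in input_SYN minus input_TH, called by edgeR.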

How the results depend on the processing

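Library size in place of TMM turned values of SYN against TH from positive to negative. In SC these were Qdpr at 3w (-0.27), 5m (-0.14) and 18m (-0.41), Il33 at 5m (-0.19), and Gsn (-0.081), Apod (-0.16), Il33 (-0.31), Trf (-0.098) and Car2 (-0.42) at 18m. In the input these were Qdpr (-0.16, -0.058 and -0.44 at 3w, 5m and 18m), Car2 (-0.15, -0.13 and -0.27), Anln at 3w (-0.57) and Il33 (-0.062) and Apod (-0.28) at 5m. The shift of the median of all genes given above is by construction part of each. The number of the 8 genes called also moved with library size, to 2 for SC_SYN against SC_TH at 5m, 3 and 1 for the input at 3w and 5m, 0 for the interaction of the input from 5m to 18m and 2 for SC_SYN against input_SYN at 3w. With DESeq2 it was 2 in SC_TH and 1 in SC_SYN from 5m to 18m. With at least 10 counts in every library it was 2 for SC_SYN against SC_TH at 18m, 3 for the input at 3w, 3 at 5m, and 2 for SC_SYN against input_SYN at 3w. Abca8a and Trf, with as few as 5 and 7 counts in input_SYN at 3w, failed this filter in fits with input_SYN. Abca8a, with as few as 7 counts in SC_TH at 3w, also failed it in fits with SC_TH. These counts are thus out of fewer than 8 genes, and a gene that failed was not tested. Without a filter it was 4 in SC_TH from 5m to 18m, 0 for the interaction of the input from 5m to 18m, 1 for each interaction of SC with input in TH, and 3 for SC_SYN against input_SYN at 3w and at 5m. The cause of the other moves under DESeq2 and the filters was not tested.

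With 1 mouse left out, 5 to 8 genes were called in SC_TH from 3w to 5m, 0 to 3 from 5m to 18m, 1 to 4 for SC_SYN against SC_TH at 18m, 0 to 2 and 0 to 1 for SC_SYN against input_SYN at 5m and 18m, and 0 to 1 for the interaction of the input from 5m to 18m. With the mouse as a replicate block, calls were gained for Apod in input_SYN against input_TH at 5m (0.48) and Gsn in SC_TH against input_TH at 3w (0.22), and no other call of the 8 genes changed. Depth limits most in input_SYN, where 5 counts of Abca8a were the fewest. Of 168 counts of calls over the other gene lists, 27 moved by more than 1.5 times with DESeq2 and 13 with library size.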

Other observations

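Earlier stages of the oligodendrocyte line moved as follows. Of 10 precursor and lineage genes, 7 fell in input_TH from 3w to 5m, 5 in SC_TH, 4 in input_SYN and 4 in SC_SYN, and none rose. From 5m to 18m 3 of them rose in input_TH and 1 in SC_TH. Of 8 microglia markers, 3 rose in SC_TH, 4 in input_SYN and 5 in SC_SYN from 3w to 5m, while 1 fell in input_TH. Of 8 endothelial and pericyte markers, 5 fell in input_TH from 5m to 18m. Of 6 nuclear RNAs, 4 fell in SC_TH from 3w to 5m and 5 from 5m to 18m.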
